A study of Mus musculus with 2 samples.

Results

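The 10 genes described here encode the pore-forming alpha1 subunits of voltage-gated calcium channels in the mouse. They were chosen by name as the complete Cacna1 family, Cacna1a to Cacna1i and Cacna1s, and each name matched 1 of the 55536 annotated genes. The tissue was adrenal gland from female B6CASTF1/J mice, an F1 hybrid strain with a CAST parent, aged 25 days, with no treatment named in the labels. Total RNA was sequenced in 2 libraries of this 1 group, replicate 1 and replicate 2, each made with a directional kit from 300 ng of RNA with ERCC spike-ins, which are synthetic control RNAs. The sample descriptions number the libraries biological replicate 1 and 2, each as technical replicate 1. The labels nevertheless disagree on whether the libraries came from separate animals. An SD here therefore reflects the difference of 2 libraries and may not cover variation between animals. With a single group there was no comparison between conditions: the data give each gene's level, its transcripts, and the difference between the libraries.

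Each alpha1 subunit folds into 4 homologous repeats around the pore, and each repeat holds a voltage sensor and a pore loop. L-type channels (Cacna1c, Cacna1d, Cacna1f, Cacna1s) and the P/Q-, N- and R-type channels (Cacna1a, Cacna1b, Cacna1e) work with auxiliary alpha2delta and beta subunits. Most of them open at strong depolarization, though the channel of Cacna1d opens at less positive potentials. T-type channels (Cacna1g, Cacna1h, Cacna1i) open near the resting potential. In the adrenal gland, calcium entry is known to drive aldosterone synthesis in the zona glomerulosa of the cortex and the release of catecholamines from chromaffin cells of the medulla. In humans, gain-of-function variants of CACNA1D and CACNA1H are known causes of excess aldosterone.

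The libraries differed in depth and in the share of reads on coding genes. Expected counts, which are reads estimated per gene, summed to 19366343 in replicate 1 and 33728646 in replicate 2, of which 36.4% and 66.1% fell on nuclear protein-coding genes other than Lars2. Levels are given in TPM, the deposited measure of abundance, which corrects for transcript length and sums over all features to the same total in each library. Deposited TPM of a coding gene was therefore lower in replicate 1 for the same share of coding RNA. A further scale, coding TPM, made TPM sum to the same total over those 22014 coding genes. The gland's own cell types were present: all 8 chromaffin markers, all 4 zona glomerulosa markers and all 7 steroidogenic cortex markers reached 1 TPM in both libraries. The liver markers Alb, Apoa1, Fgb and Serpina1b, which summed to 183 TPM in replicate 1 and 3.74 TPM in replicate 2, separated the libraries. All 4 adipocyte markers were called higher in replicate 1 by the exact binomial test described with the library ratios. Of all genes tested, 15.9% were called higher. The adipocyte markers had a median log2 ratio of 0.32, with Ucp1 at 0.91, and made up 0.327% and 0.249% of coding TPM. Whether this touched any calcium channel gene was not tested.

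Pore subunit RNA in this gland was mostly that of Cacna1c and Cacna1h, an L-type and a T-type gene. Together they held 90.3% of the 10 members' summed TPM in replicate 1 and 87.3% in replicate 2. Cacna1d and Cacna1a followed at low levels, and these 4 genes were the members that reached 1 TPM in each library. The other 6 stayed below it in each.

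The 2 leading genes differ at the filter that selects calcium. In each repeat, 1 acidic residue of the pore loop faces the permeating ion. The coding sequences of Cacna1c and Cacna1h around that codon are shown, as annotated by GENCODE M21 on mm10, because they carry the feature that separates the classes these genes represent. Each window has 36 bases, reads 5′ to 3′ in the coding sense, and has the filter codon in capitals. Both genes lie on the minus strand. Windows whose coordinates span more than 36 bases cross a splice junction. The sequences are those of the reference genome, not of the hybrid animals.
Cacna1c repeat 1, chr6:118751375-118751410: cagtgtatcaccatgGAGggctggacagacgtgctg
Cacna1h repeat 1, chr17:25393571-25393731: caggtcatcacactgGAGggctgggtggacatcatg
Cacna1c repeat 2, chr6:118686205-118687008: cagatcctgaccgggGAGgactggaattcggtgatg
Cacna1h repeat 2, chr17:25387868-25388047: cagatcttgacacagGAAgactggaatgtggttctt
Cacna1c repeat 3, chr6:118654449-118656141: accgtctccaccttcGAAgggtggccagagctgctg
Cacna1h repeat 3, chr17:25383490-25383525: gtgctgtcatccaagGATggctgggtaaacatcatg
Cacna1c repeat 4, chr6:118614044-118624368: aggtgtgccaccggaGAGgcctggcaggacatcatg
Cacna1h repeat 4, chr17:25377765-25377800: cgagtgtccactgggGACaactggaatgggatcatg

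All 4 filter codons of Cacna1c code for glutamate, while those of Cacna1h code for glutamate in repeats 1 and 2 and for aspartate in repeats 3 and 4. The same search found 4 windows in the longest complete coding transcript of every member. The 7 members that are not T-type had 4 glutamate codons each, and the 3 T-type members had 2 glutamate and 2 aspartate codons each.

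Cacna1c (ENSMUSG00000051331.15, chr6:118587240-119196418, minus strand) encodes the L-type channel of heart, smooth muscle and many neuroendocrine cells. It received 2252 expected counts in replicate 1 and 6946 in replicate 2, which gave 22.2 and 34.4 TPM, or 28.3 ± 8.63 TPM (SD, n = 2). On the coding TPM scale the libraries lay closer, at 107 in replicate 1 and 102 in replicate 2. The locus overlaps Dcp1b on the other strand, and whether counting used the strand is not given in the sources used here, so a part of those reads could not be told apart. It ranked 1888th and 2061st among the 22014 coding genes, so 91.4% and 90.6% of them were listed lower.

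Cacna1h (ENSMUSG00000024112.16, chr17:25374285-25433783, minus strand) encodes a T-type channel. Its 1869 and 6114 counts in replicates 1 and 2 gave 23.0 and 33.0 TPM, or 28.0 ± 7.08 TPM (SD, n = 2). Coding TPM was 111 in replicate 1 and 97.6 in replicate 2. The ratio of Cacna1h to Cacna1c was 1.04 in replicate 1 and 0.959 in replicate 2, so the order of these 2 genes changed between the libraries and neither can be called the higher. The order also turned with the processing. In a second deposited quantification Cacna1h stood at 0.876 and 0.863 times Cacna1c, and over protein-coding transcripts alone at 1.35 and 1.13 times.

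Cacna1d (ENSMUSG00000015968.17, chr14:30039939-30491455, minus strand) encodes the L-type channel that opens at less positive potentials and is known for pacing in chromaffin and sinoatrial cells. Replicate 1 gave 281 counts and replicate 2 gave 1022, which is 2.83 and 5.62 TPM. Coding TPM was 13.7 and 16.6. Cacna1h exceeded it 8.13-fold in replicate 1 and 5.87-fold in replicate 2.

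Cacna1a (ENSMUSG00000034656.17, chr8:84388440-84640246, plus strand) encodes the P/Q-type channel of presynaptic terminals. It had 49 and 230 counts, for TPM values of 1.04 in replicate 1 and 2.65 in replicate 2. Protein-coding transcripts held 30.8% and 29.4% of that TPM, so on coding transcripts alone the gene was at 0.32 and 0.78 TPM. Cacna1b (ENSMUSG00000004113.18, chr2:24603887-24763152, minus strand), the N-type channel, had 42 and 218 counts and reached 0.30 TPM in replicate 1 and 0.99 TPM in replicate 2, just under the threshold. Cacna1d, Cacna1a and Cacna1b kept this order in both libraries, and their ranges of coding TPM did not overlap.

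**Figure D1:**
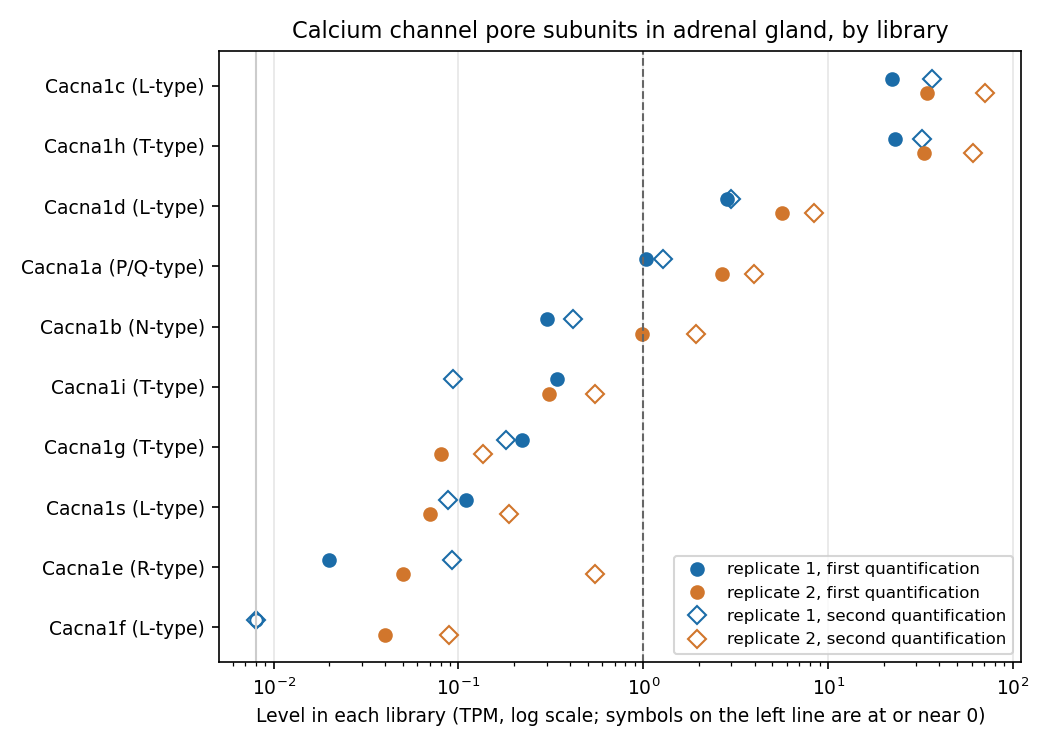
Level of each pore subunit in each library in TPM on a log axis, with filled circles for the first quantification and open diamonds for the second, replicate 1 above replicate 2. The dashed line marks 1 TPM; Cacna1c and Cacna1h lie between 22.2 and 70.4 TPM on both quantifications, and Cacna1f was listed at 0 in replicate 1.

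Among the remaining T-type genes, Cacna1i (ENSMUSG00000022416.15, chr15:80287238-80398279, plus strand) had 12 counts in replicate 1, against 95 in replicate 2. The deposited TPM was nevertheless similar, 0.34 and 0.31. In replicate 1, Cacna1i-204, a transcript of 313 bases with 0.75 counts, supplied 0.21 of the 0.34 TPM. The full-length Cacna1i-202, of 9781 bases, was at 0.07 TPM with 10.6 counts in replicate 1 and at 0.31 TPM with 95 counts in replicate 2. Cacna1g (ENSMUSG00000020866.17, chr11:94408391-94474198, minus strand), the other T-type gene, had 7 and 17 counts, and 0.22 and 0.08 TPM. Its value in replicate 1 likewise rested on a short form: Cacna1g-212, with 1.90 counts over 784 bases, gave 0.17 TPM.

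Cacna1s (ENSMUSG00000026407.17, chr1:136052750-136119822, plus strand), the voltage sensor of skeletal muscle, had 5 counts in replicate 1 and 11 in replicate 2, or 0.11 and 0.07 TPM. None of the 6 skeletal muscle markers reached 1 TPM in both libraries, and the list summed to 1.76 and 1.73 TPM. Cacna1e (ENSMUSG00000004110.16, chr1:154390731-154884501, minus strand), the R-type channel, had 5 and 17 counts, or 0.02 and 0.05 TPM. Cacna1f (ENSMUSG00000031142.17, chrX:7607083-7635196, plus strand), the L-type channel of retinal photoreceptors, had 0 counts in replicate 1 and 1 count in replicate 2. The photoreceptor marker Crx was at 0 counts in both libraries. Below Cacna1b the order of the genes was not resolved: the ranges of coding TPM overlapped for Cacna1b and Cacna1i, Cacna1i and Cacna1g, Cacna1g and Cacna1s, and Cacna1e and Cacna1f, though not for Cacna1s and Cacna1e. Exact Poisson 95% intervals on the counts, which cover counting error only, ran from 1.62 to 11.7 for Cacna1e in replicate 1 and from 9.90 to 27.2 in replicate 2. For the 0 counts of Cacna1f in replicate 1 the upper limit was 3.69 counts.

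Summed by current type, the L-type members held 50.2% of the family's TPM in replicate 1 and 52.0% in replicate 2, or 51.1% ± 1.23 (SD, n = 2). T-type members held 47.1% and 43.2%, or 45.1% ± 2.69. The P/Q-, N- and R-type genes together held the other 2.72% and 4.78%. L-type members exceeded T-type members by 3.18 percentage points in replicate 1 and by 8.73 in replicate 2. Restricting the sum to protein-coding transcripts put T-type members above L-type members in both libraries, at 54.7% and 49.0% against 43.5% and 48.0%. The second quantification left L-type members the higher, at 53.8% in each library, with T-type members at 43.8% and 41.8%.

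**Figure D2:**
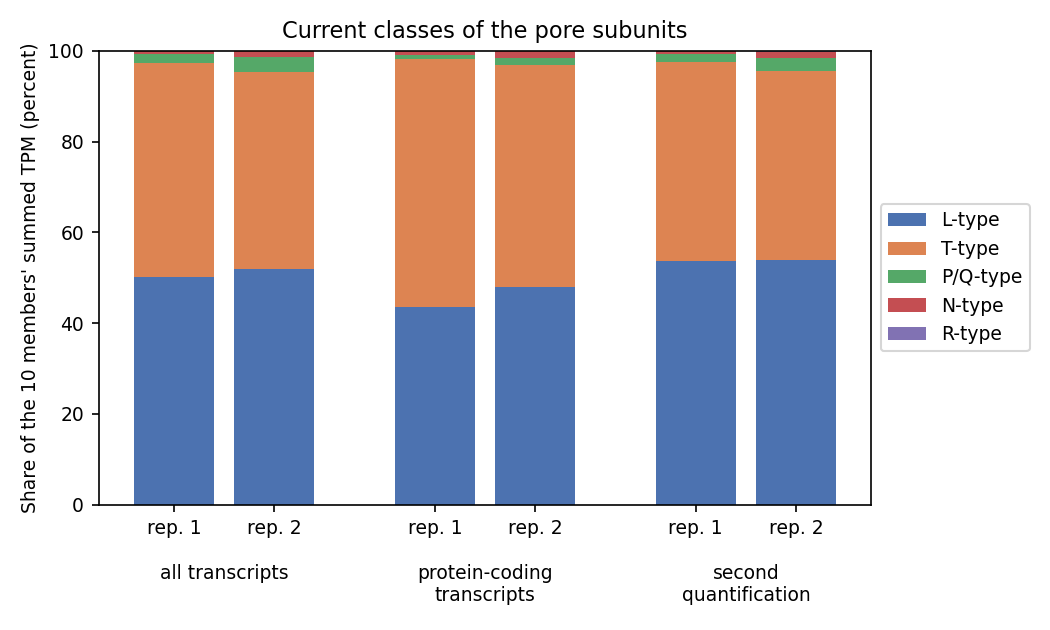
Share of the 10 members' summed TPM by current type, in percent, for replicate 1 and replicate 2 on 3 scales. The L-type and T-type segments fill 95.2% or more of every bar on all 3 scales, and the larger of them changes with the scale.

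The most abundant full-length transcripts of Cacna1c were a pair that start 87.7 kb apart. Together they held 47.7% of the gene's abundance in replicate 1 and 57.9% in replicate 2, and 36.8% and 44.0% in the second quantification. Of its 27 annotated transcripts, 4 held at least 10% of the gene's abundance in both libraries. The full-length Cacna1c-216 (48 exons) was at 6.08 TPM in replicate 1, with 12.2 TPM in replicate 2, which is 27.4% and 35.6% of the gene. The full-length Cacna1c-207 (47 exons) was at 4.51 and 7.67 TPM, or 20.3% and 22.3%. The other 2, Cacna1c-211 and Cacna1c-218, are processed transcripts of 4 exons. They held 15.3% and 14.5% in replicate 1 and 13.6% and 14.3% in replicate 2. In the second quantification Cacna1c-218 led the gene, with 13.2 TPM in replicate 1 and 24.7 TPM in replicate 2, or 36.0% and 35.1%. Because both are short, the shares of the first quantification rested on few reads: Cacna1c-218 had 45.0 counts in replicate 1 and 132 in replicate 2.

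The start of Cacna1c-207 is the distal one, whose leader exon is known from heart, and Cacna1c-216 starts at the proximal one, whose leader exon is known from smooth muscle and brain. Among the 22 protein-coding transcripts with 40 or more coding exons, the 12 with a proximal start held 54.2% of TPM in replicate 1 and 60.0% in replicate 2. The 4 with a distal start held 33.9% and 35.1%, and the 6 others began farther downstream. The second quantification gave proximal starts 61.1% and 57.6% and distal starts 27.9% and 31.7%. These shares are estimates over whole transcripts and leave out the short Cacna1c-218, which also begins at the distal start. With it, distal starts had 7.72 TPM in replicate 1 and 12.6 TPM in replicate 2, against 7.22 and 13.1 TPM for proximal starts, so the order changed between the libraries. In the second quantification distal starts then led in both, at 17.8 and 36.0 TPM against 10.1 and 20.5 TPM. Cacna1c-207 is also the only annotated transcript to cover the last 5064 of its 13162 bases at the 3′ end, so reads from that end are assigned to it whatever their leader exon.

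The sequences just upstream of these starts are shown because the starts share the gene's RNA and differ in base composition. They come from RefSeq (GRCm38.p6), leave out every base of an annotated Cacna1c exon, lie on the minus strand, read 5′ to 3′ and have each CG in capitals.
Cacna1c distal, chr6:119196419-119196659: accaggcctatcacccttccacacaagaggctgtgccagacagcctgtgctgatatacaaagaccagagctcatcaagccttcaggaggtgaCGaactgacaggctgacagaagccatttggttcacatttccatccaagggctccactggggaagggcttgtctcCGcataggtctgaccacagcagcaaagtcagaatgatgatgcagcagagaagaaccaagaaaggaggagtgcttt
Cacna1c proximal, chr6:119108574-119108745: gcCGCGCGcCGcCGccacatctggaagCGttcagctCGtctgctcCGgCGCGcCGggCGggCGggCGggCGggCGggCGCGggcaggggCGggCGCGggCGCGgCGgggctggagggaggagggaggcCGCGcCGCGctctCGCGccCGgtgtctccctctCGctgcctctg

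Counted over the whole RefSeq window, the 250 bases before the distal start held 2 CG pairs, and 81.2% of the 32851 promoter windows in the RefSeq table held at least as many. The 250 bases before the proximal start held 48, which 0.186% of windows matched or exceeded. RefSeq puts the proximal start inside the leader exon of Cacna1c-216, so 78 of those 250 bases are annotated exon, and the 172 bases shown held 32 CG pairs. CG is its own reverse complement, so the count is the same on both strands, and it describes the sequence only.

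The full-length Cacna1c transcripts also differ in 3 places where neighbouring exons of equal length stand in for each other. The pair of 104-base exons encodes the sixth membrane segment of repeat 1. They are shown because transcripts with the downstream exon led in both libraries. Capitals mark the 32 bases at which the pair differs, and 290 bases of intron separate them.
Cacna1c upstream exon, chr6:118742265-118742368: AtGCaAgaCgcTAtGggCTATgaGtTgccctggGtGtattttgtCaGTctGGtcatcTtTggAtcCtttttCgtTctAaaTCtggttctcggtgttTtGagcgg
Cacna1c downstream exon, chr6:118741871-118741974: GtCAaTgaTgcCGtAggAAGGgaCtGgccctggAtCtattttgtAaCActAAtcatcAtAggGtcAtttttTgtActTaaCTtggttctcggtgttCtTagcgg

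Protein-coding transcripts with the upstream exon held 35.1% of the pair's TPM in replicate 1 and 35.5% in replicate 2, and 27.9% and 32.3% in the second quantification. The remainder carried the downstream exon. A pair of 60-base exons, in the second segment of repeat 3, split more evenly, with the upstream exon at 55.4% and 60.0%. A pair of 84-base exons, in the third segment of repeat 4, had the upstream exon at 37.6% in both libraries. Transcripts that carry both exons of a pair were left out, 2 for the 60-base pair and 3 for the 84-base pair. Since Cacna1c-216 and Cacna1c-207 differ at all 3 pairs and lead the estimates, the shares of the pairs are not independent of each other.

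Cacna1d has a matching pair of 104-base exons at the same segment, with 22 differing bases in capitals. Their shares are the most uneven of the 4 pairs, so the sequences are given for comparison with Cacna1c.
Cacna1d upstream exon, chr14:30171956-30172059: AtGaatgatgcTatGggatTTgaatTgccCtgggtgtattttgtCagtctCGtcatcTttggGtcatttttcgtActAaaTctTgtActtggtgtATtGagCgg
Cacna1d downstream exon, chr14:30171296-30171399: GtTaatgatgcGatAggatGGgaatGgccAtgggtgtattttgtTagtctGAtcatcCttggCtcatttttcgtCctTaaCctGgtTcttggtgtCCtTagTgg

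The upstream exon of Cacna1d held 15.4% of the pair's TPM in replicate 1 and 14.9% in replicate 2, and 0% and 8.86% in the second quantification. In TPM this was 0.19 against 1.04 for the downstream exon in replicate 1, and 0.39 against 2.22 in replicate 2. Of 12 annotated Cacna1d transcripts, 4 held at least 10% in both libraries. The full-length coding Cacna1d-202 held 12.6% and 20.4%, and the full-length coding Cacna1d-204 held 14.7% and 19.1%. Cacna1d-208, annotated as a target of nonsense-mediated decay, held 13.3% and 13.2%. The retained-intron Cacna1d-212 held 26.1% in replicate 1 and 10.5% in replicate 2, and was at 0.00378 TPM and 0 in the second quantification.

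Cacna1h was carried by a single full-length transcript in the first quantification. Cacna1h-205, with 35 exons and 8230 bases, held 13.0 TPM in replicate 1 and 22.6 TPM in replicate 2, which is 56.7% and 68.4% of the gene. It was the only one of 10 transcripts at or above 10% in both. The second quantification divided the full-length RNA among Cacna1h-205, at 9.94 and 17.4 TPM, Cacna1h-201, at 6.03 and 14.9 TPM, and in replicate 2 also Cacna1h-202, at 3.56 TPM. Those transcripts have the same number of exons, and the first quantification listed Cacna1h-201 at 0 in both libraries. A short coding form of 7 exons, Cacna1h-207, had 4.72 TPM in replicate 1 and 1.25 TPM in replicate 2 from 60.3 and 30.7 counts. The second quantification turned this direction round, with 0.0928 TPM in replicate 1 and 13.0 TPM in replicate 2. Retained-intron forms of Cacna1h held 21.8% and 25.3% of the gene's abundance. For Cacna1a the coding form Cacna1a-201 held 23.9% and 29.4%. The short processed forms Cacna1a-205 and Cacna1a-210 held 23.1% and 17.5% in replicate 1 and 21.2% and 16.9% in replicate 2, on 0.59 to 6.32 counts.

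**Figure D3:**
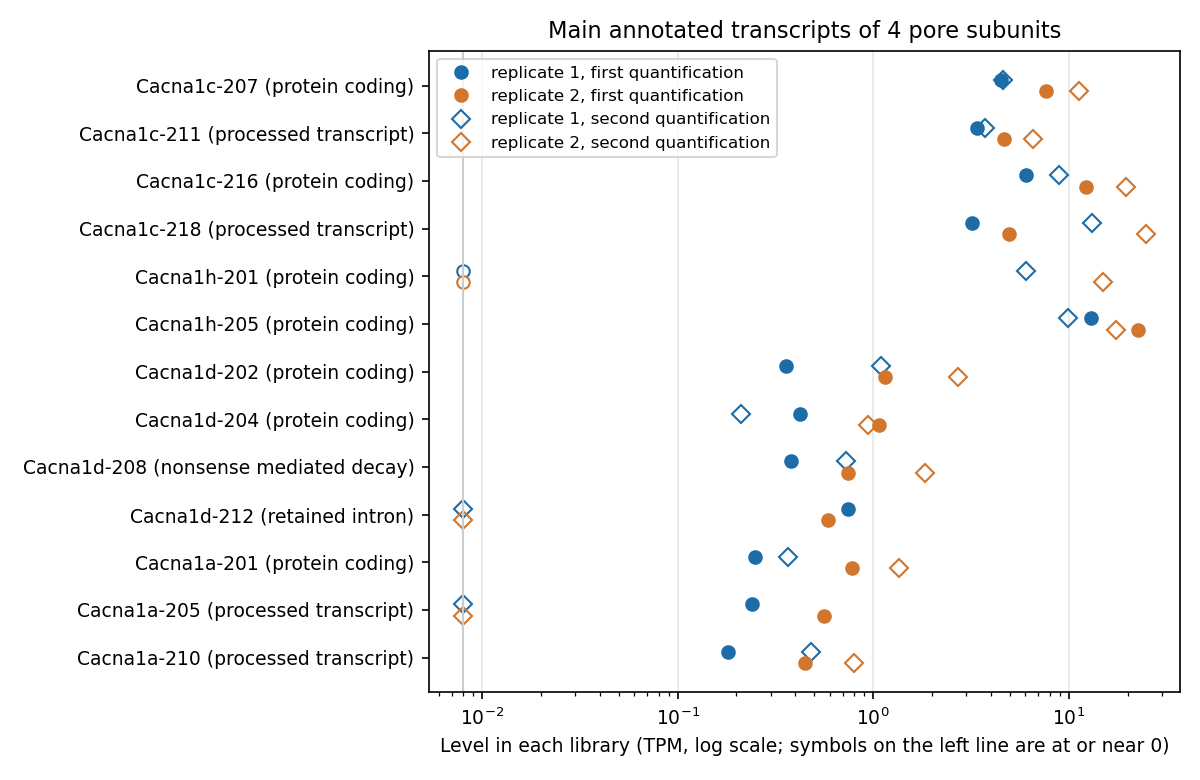
Level of the annotated transcripts of Cacna1c, Cacna1h, Cacna1d and Cacna1a with at least 10% of their gene in both libraries of either quantification, in TPM on a log axis, with symbols as for the member levels. Both quantifications placed Cacna1c-216 above Cacna1c-207 in both libraries, whereas Cacna1h-201 was at 0 in the first quantification and at 6.03 and 14.9 TPM in the second.

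Between the libraries, the counting intervals of Cacna1c and Cacna1h were narrow and included a ratio of 1, while the low genes Cacna1a and Cacna1b were lower in replicate 1. Counts were scaled by TMM. A two-sided exact binomial test, with p-values adjusted by Benjamini-Hochberg, covered the 11542 genes whose mean count reached 100. It weighs how these libraries differ against counting error alone. The log2 ratio of replicate 1 over replicate 2 was 0.06 for Cacna1c (95% counting interval -0.01 to 0.13, adjusted exact binomial p = 0.194) and -0.03 for Cacna1h (-0.10 to 0.05, adjusted exact binomial p = 0.654). Cacna1d was at -0.18 (-0.37 to 0.01, adjusted exact binomial p = 0.15). Cacna1a was at -0.54 (-1.02 to -0.10, adjusted exact binomial p = 0.0426) and Cacna1b at -0.69 (-1.20 to -0.21, adjusted exact binomial p = 0.0135).

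The binomial test therefore called 2 of the 5 members tested, both lower in replicate 1, against 33.5% of all genes tested, so the members' count lay near the background. None of the 5 was 2-fold or more apart, against 1.32% of all genes tested. Of the 5, 4 had a ratio below 0, as had 54.9% of all genes tested, and their median log2 ratio was -0.18 against -0.03 for all genes. The call of Cacna1a was lost in the second quantification, where its ratio was -0.43 (adjusted exact binomial p = 0.0732), and Cacna1d was called there at -0.25 (adjusted exact binomial p = 0.0194). Scaled by spike-in counts, Cacna1d was called at -0.31 (adjusted exact binomial p = 0.00425) and Cacna1h at -0.16 (adjusted exact binomial p = 0.000203), where the median of all genes was also -0.16. The other 5 members had mean counts below 100 and were not tested. Among them, Cacna1i had the lowest ratio, -1.27, with a counting interval of -2.30 to -0.43.

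Markers of chromaffin cells and neurons, which use P/Q- and N-type channels, were set beside the ratios of Cacna1a and Cacna1b. The 8 chromaffin markers had a median log2 ratio of -0.18, with 6 called lower and 2 called higher in replicate 1, against 17.6% and 15.9% of all genes tested. They made up 0.495% of coding TPM in replicate 1 and 0.527% in replicate 2. Of the 3 neuron markers tested 1, Syp, was called lower in replicate 1, and the median log2 ratio of the 3 was -0.15. The 6 neuron markers summed to 13.6 TPM in replicate 1 and 27.1 TPM in replicate 2. As given above, deposited TPM of a coding gene was lower in replicate 1 for the same share of coding RNA. None of the defining chromaffin markers was at 0. The part of these markers, and of the liver and adipocyte markers given above, in the ratios of Cacna1a and Cacna1b was not tested, and in bulk RNA fewer cells of a type and less RNA per cell cannot be told apart.

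**Figure D4:**
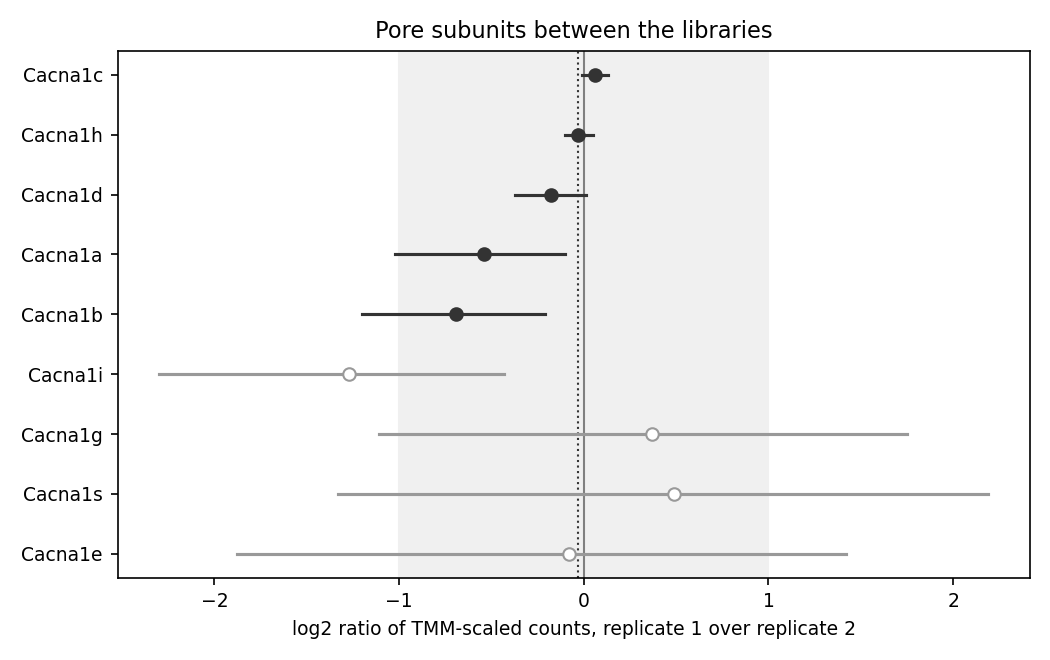
The log2 ratio of TMM-scaled counts, replicate 1 over replicate 2, of 9 members with exact 95% counting intervals, black for the 5 members tested and grey for those with a mean count below 100. The band marks less than 2-fold, and the dotted line the median of all genes tested (-0.03); the intervals of Cacna1a, Cacna1b and Cacna1i lie below 0. Cacna1f is not drawn, as it had 0 counts in replicate 1.

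The alpha2delta subunits, which bring high-voltage-activated channels to the cell surface, were represented chiefly by Cacna2d1. It was at 27.6 TPM in replicate 1, with 47.2 TPM in replicate 2, or 37.4 ± 13.9 TPM (SD, n = 2), above Cacna1c in both libraries. Cacna2d2 had 1.45 and 1.85 TPM, Cacna2d3 had 1.26 and 1.21 TPM, and Cacna2d4 was at 0 counts in both. Of the beta subunits, which bind the intracellular side of the same channels, Cacnb2 led with 13.0 and 22.7 TPM. Cacnb3 was at 3.01 and 4.15 TPM and Cacnb1 at 1.55 and 3.43 TPM, while Cacnb4 stayed at 0.09 TPM or less. None of the 5 auxiliary subunits of these lists that were tested was called by the exact binomial test, against 33.5% of all genes tested. Cacnb1, at a log2 ratio of -0.51 (adjusted exact binomial p = 0.0521), and Cacnb2, at -0.15 (adjusted exact binomial p = 0.0675), lay just over the threshold of 0.05.

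In the gamma family, most of whose members are known to act on glutamate receptors rather than on calcium channels, 2 of 8 reached 1 TPM in both libraries. Cacng7 had 1.39 and 3.32 TPM, and Cacng4 had 1.44 and 1.40 TPM. Cacng8 averaged 1.10 ± 0.82 TPM (SD, n = 2). Cacng1, the gamma subunit of the skeletal muscle channel, had 0 counts in replicate 1 and 1 count in replicate 2. Among the RGK GTPases, which inhibit high-voltage-activated channels, Gem led with 11.2 TPM in replicate 1 and 14.9 TPM in replicate 2. It was called higher in replicate 1 at a log2 ratio of 0.33 (adjusted exact binomial p = 0.00176). Rem1 followed at 1.70 and 2.97 TPM, and Rrad at 0.83 and 1.27 TPM. Of the STAC adaptors, which bind L-type channels, Stac alone reached 1 TPM in both libraries, at 1.10 and 1.75 TPM.

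**Figure D5:**
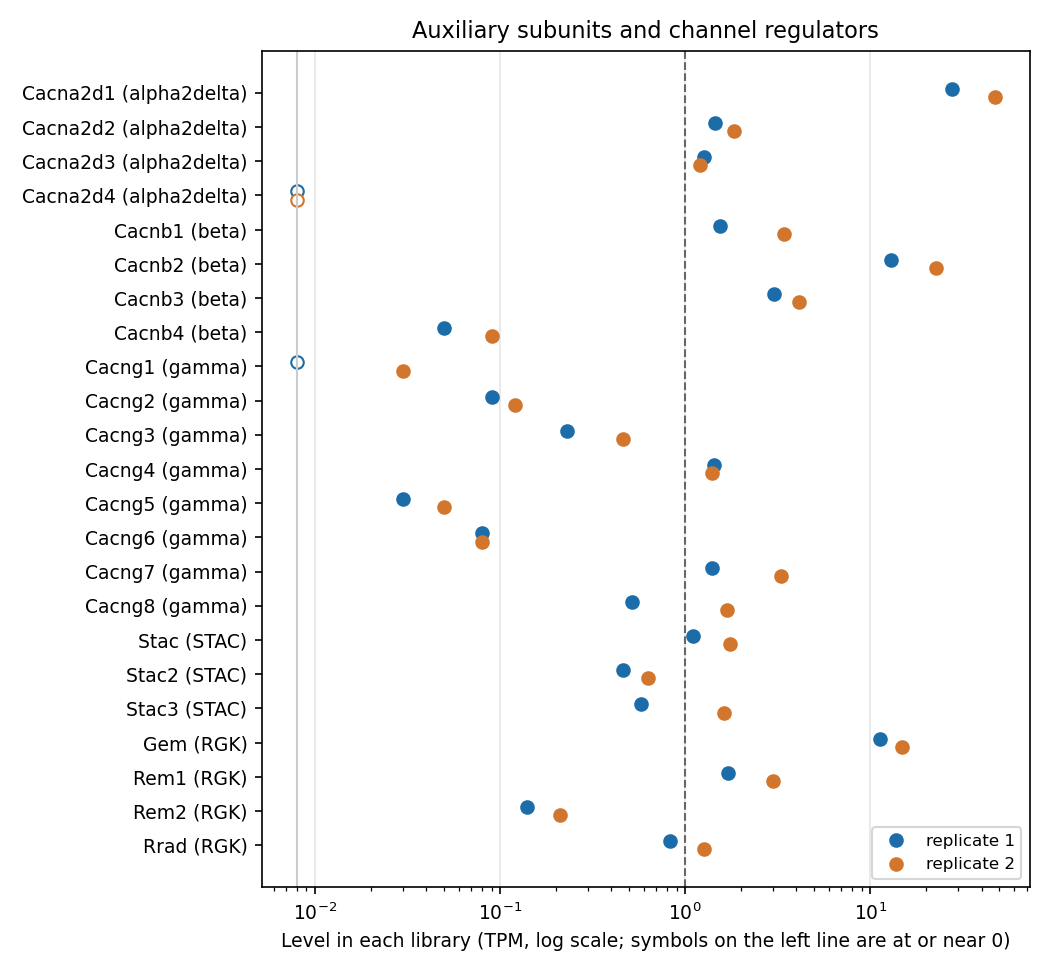
Level of the alpha2delta, beta and gamma subunits, STAC adaptors and RGK GTPases in replicate 1 (upper symbol) and replicate 2 (lower symbol), in TPM on a log axis, with 1 TPM dashed. Cacna2d1, Cacnb2 and Gem are the only genes of these lists above 10 TPM in both libraries, and Cacna2d4 was at 0 in both.

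Other genes of calcium handling were described in the same way. Of calmodulin and CaMKII genes, which sense the calcium that enters, Calm2 had 110 TPM in replicate 1, with 192 TPM in replicate 2, Calm3 had 50.8 and 84.1 TPM, and Camk2d had 19.8 and 34.7 TPM. Of the calcium release channels, 4 of 6 reached 1 TPM in both. The inositol trisphosphate receptor gene Itpr1 was at 41.5 and 55.5 TPM, Itpr2 at 8.15 and 18.3 TPM, and the ryanodine receptor gene Ryr2 at 4.23 and 6.45 TPM. Of the 4 release channels tested, 2 were called higher and 1 lower in replicate 1, against 15.9% and 17.6% of all genes tested.

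Store-operated entry genes were lower, with 4 of 5 at 1 TPM in both libraries. The sensor Stim1 had 11.0 and 21.7 TPM, the pore gene Orai3 had 6.63 and 12.2 TPM, and Stim2 had 6.63 and 8.67 TPM. Of the pumps and exchangers that remove calcium, 6 of 10 reached 1 TPM in both: the reticulum pump Atp2a2 led at 37.6 and 58.1 TPM, before the plasma membrane pumps Atp2b1 at 10.1 and 18.0 TPM and Atp2b3 at 8.01 and 14.3 TPM. Of the 8 tested, 1 was called higher and 1 lower in replicate 1, against 15.9% and 17.6% of all genes tested. The voltage-gated sodium channel pores and the leak channel Nalcn, relatives of the same family of proteins, were low. Of these 10 genes 1, Scn8a, reached 1 TPM in both libraries, at 1.00 and 1.45 TPM, with Nalcn at 0.83 and 2.11 TPM and Scn3a at 0.58 and 1.31 TPM. The 10 together summed to 2.97 TPM in replicate 1 and 5.78 TPM in replicate 2, against 50.1 and 77.2 TPM for the calcium channel pores.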

How the data were processed

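The deposited tables of 2 adrenal gland libraries were used. Per the notes deposited beside the files, reads were quantified on mm10 with GENCODE M21. Which program did so is not given in the sources used here. Deposited by the authors were expected counts and TPM per gene and per transcript, with the percent of each gene's abundance on each transcript, and a second transcript table with estimated counts and TPM from another quantification, which was summed per gene here. Genes were matched to symbols through that second table, and 86 of 55536 genes had none there. The gene table also held 26248 tRNA and 97 spike-in entries, which stayed out of the tests.

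The members and gene lists were chosen with earlier results of these data known. All 10 members are named. Of each other list up to 3 genes with the highest mean TPM are named, and any gene 2-fold apart, and of transcripts those with at least 10% of their gene in both libraries. A few others (Cacna2d4, Cacnb4, Cacng1, Crx, Camk2d, Cacna1h-201, Cacna1h-202, Cacna1h-207, Cacna1i-202, Cacna1i-204, Cacna1g-212) were named after their values were seen. Some genes of the calmodulin and photoreceptor lists, and the counts of those lists, are not reported here.

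Ratios are log2 of replicate 1 over replicate 2 after TMM scaling in edgeR 4.0.16 under R 4.3.3, adding a prior of 1 count. The two-sided exact conditional binomial test ran on rounded expected counts, adjusted by Benjamini-Hochberg over genes whose mean count reached 100 and called at 0.05. Clopper-Pearson and Poisson intervals at 95% cover counting error only, since PCR copies were not marked by molecular identifiers. Over coding genes the chi-square statistic between the libraries was 14.5 times its degrees of freedom, so they are not copies of the same library. The ratio, test and intervals were tested on simulated counts. Alternatives were total counts, DESeq2 1.42.0 size factors, spike-in counts, other minimum counts, a prior of 0.5 and the second quantification. Coding exons and pore windows came from GENCODE M21 transcripts. Filter codons were found by translating the coding sequence and searching for the conserved pore-loop motif. Whether counting used the strand is not given in the sources used here, and Cacna1a, Cacna1b, Cacna1c, Cacna1d, Cacna1h and Cacna1s overlap genes on the other strand. Cacna1c, Cacna1d and Cacna1s each overlap 1 annotated gene on the same strand, none protein-coding. Python 3.11.15, scipy 1.17.1 and matplotlib 3.10.9 were used.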

Additional observations from a re-analysis of the deposited data

How the results depend on the processing

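Between 3 and 5 members reached 1 TPM in both libraries under all 7 alternatives, against 4 as reported: Cacna1b joined on the coding TPM scale, and Cacna1a dropped out over protein-coding transcripts and at a threshold of 2 TPM. The share of the most abundant member was 44.5% (Cacna1c), 48.8% in the second quantification (Cacna1c) and 50.9% over protein-coding transcripts (Cacna1h). It was 44.6% with replicate 1 left out (Cacna1c) and 45.9% with replicate 2 left out (Cacna1h), so the leading gene changed. Scaling by total counts moved the median log2 ratio of all genes to -0.91. On that scale 3 members and 4168 genes were 2-fold apart, the binomial test called 5 members and 11360 genes, and the ratio of Cacna1c reversed to -0.83. Spike-in scaling moved the median to -0.16 and called 4 members (Cacna1a, Cacna1b, Cacna1d and Cacna1h) and 46.4% of all genes. At a minimum mean count of 10, 1 member, Cacna1i, and 938 of 16872 genes were 2-fold apart. With no minimum 1 member and 5005 of 26008 genes were. DESeq2 size factors and a prior of 0.5 left 0 members 2-fold apart, with 153 genes each. Of the 2-fold genes, 107 were higher and 45 lower in replicate 1, against 36 and 4132 with total counts, 85 and 80 with spike-ins, 96 and 49 in the second quantification, and 480 and 458 at the minimum of 10. Of 30 alternative mean levels of members, apart from those with a library left out, 20 moved by more than the SD, 10 of them on the coding TPM scale. Beyond the alternative's own construction the causes were not tested. No paired analysis was possible because there is 1 group. Ratios cannot be formed with a library left out. Depth limits the 5 members with mean counts below 100, for which only wide intervals are available.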
